A study of Homo sapiens with 6 samples.

Results

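RNA from cells labelled H1650, an established human lung adenocarcinoma cell line, was sequenced in 6 libraries, and 10 genes of serine synthesis and of the ATF4 response were examined among the 15897 genes listed. The genes were chosen by name: PHGDH, PSAT1, PSPH, SHMT2, MTHFD2, ASNS, CHAC1, DDIT3, ATF4 and TRIB3, all of which were listed and passed the filter on low values (a mean of at least 0.5 FPKM over the 6 libraries, 14068 genes). There were 3 libraries of control cells, given as wild type, and 3 libraries of cells given as shSETD2, in which a lentiviral short hairpin RNA against the H3K36 methyltransferase SETD2 was stably expressed. The study made 3 hairpins, and the labels do not say which of them each shSETD2 library carried or whether the libraries came from separate cultures, so p-values measure only the spread between these libraries.

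Cells make serine from the glycolytic intermediate 3-phosphoglycerate through the successive enzymes PHGDH, PSAT1 and PSPH, and in the mitochondria SHMT2 and MTHFD2 pass a carbon of serine to folate for the synthesis of nucleotides. The transcription factor ATF4 drives many of these genes. When amino acids are short or proteins misfold in the endoplasmic reticulum, kinases phosphorylate the initiation factor eIF2, general translation slows, and the ATF4 mRNA is translated more, so the level of ATF4 mRNA is not the level of ATF4 protein. Among its targets are ASNS, which makes asparagine, CHAC1, which degrades glutathione, DDIT3, which encodes the stress factor CHOP, and TRIB3, a pseudokinase that binds ATF4 and CHOP. Some lung adenocarcinomas rely on serine made inside the cell, and PHGDH is amplified in some tumours.

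The libraries did not plainly match their labels in every respect. SETD2 itself measured 17.99, 10.2 and 17.6 FPKM in the control libraries and 8.97, 8.09 and 12.2 FPKM in the shSETD2 libraries, so control library 2 lay within the range of the shSETD2 libraries. The mean of the shSETD2 libraries was 63.8% of control, and the difference did not pass the threshold (log2 fold change -0.58 ± 0.24 SE, adjusted p = 0.0641, limma). The study reports lower SETD2 by qPCR and western blot in H1650 cells given hairpins, which are other measures than these libraries. Of 8 lung markers only NKX2-1 was listed, at 1.44 to 1.80 FPKM in the control libraries and at 0 in every shSETD2 library. The summed level of 7 listed epithelial markers of 8 was 14.1 to 16.0 FPKM in control and 402.1 to 454.5 FPKM in shSETD2 libraries, carried by KRT7, KRT8 and KRT18. CDH1 and EPCAM went the other way, with means of 1.27 and 0.710 FPKM in control and 0.0120 and 0.220 FPKM in shSETD2 libraries, EPCAM being too low to be tested. The summed level of 4 listed neuronal markers of 7 was 65.5 to 69.6 FPKM in control and 15.3 to 16.9 FPKM in shSETD2 libraries, with 3 of the 4 at 0 in every shSETD2 library. The sum of 8 kidney markers was 26.2 to 28.1 FPKM in control and 46.0 to 55.9 FPKM in shSETD2 libraries (3 at 0 in all of the latter), and that of 5 mesenchymal markers was 94.4 to 109.7 and 155.2 to 166.0 FPKM (1 at 0 in all of the latter). Pearson's r of log2(FPKM + 1) across genes, which are not independent replicates, was 0.985 to 0.991 within groups and 0.756 to 0.761 between groups. These differences move with every result given here, and their part in it was not tested.

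To see how the proximal promoters of the ATF4 targets differ, the 250 bases before the most upstream RefSeq start (GRCh38.p14) were read for the members with an entry, 8 of 10, and searched on both strands for the C/EBP-ATF response element, the composite site that ATF4 binds with a C/EBP partner (TGATGNAA), for the CCAAT box (CCAAT) and for the AP-1 site (TGANTCA). Sequences are shown for 2 targets that were lower in shSETD2 libraries, ASNS (chr7:97872409-97872658, minus strand) and CHAC1 (chr15:40953221-40953470, plus strand), and for the 2 that were higher, DDIT3 (chr12:57520518-57520767, minus strand) and TRIB3 (chr20:381045-381294, plus strand). Each is written 5′ to 3′ and ends at the base before the start, with every motif match in capitals.
ASNS: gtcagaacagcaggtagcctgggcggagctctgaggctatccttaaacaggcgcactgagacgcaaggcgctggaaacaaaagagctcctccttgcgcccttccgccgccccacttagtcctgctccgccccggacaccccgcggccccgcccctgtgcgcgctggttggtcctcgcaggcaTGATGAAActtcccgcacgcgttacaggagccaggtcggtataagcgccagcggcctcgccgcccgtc
CHAC1: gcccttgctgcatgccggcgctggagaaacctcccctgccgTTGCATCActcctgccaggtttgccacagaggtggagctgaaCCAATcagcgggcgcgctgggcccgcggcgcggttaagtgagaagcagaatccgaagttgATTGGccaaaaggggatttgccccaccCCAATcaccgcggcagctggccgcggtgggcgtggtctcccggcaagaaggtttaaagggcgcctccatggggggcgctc
DDIT3: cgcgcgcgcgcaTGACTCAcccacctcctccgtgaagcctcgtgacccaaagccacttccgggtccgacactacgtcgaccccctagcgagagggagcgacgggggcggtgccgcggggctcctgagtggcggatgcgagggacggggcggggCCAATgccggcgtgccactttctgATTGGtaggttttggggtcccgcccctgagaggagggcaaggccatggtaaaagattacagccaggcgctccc
TRIB3: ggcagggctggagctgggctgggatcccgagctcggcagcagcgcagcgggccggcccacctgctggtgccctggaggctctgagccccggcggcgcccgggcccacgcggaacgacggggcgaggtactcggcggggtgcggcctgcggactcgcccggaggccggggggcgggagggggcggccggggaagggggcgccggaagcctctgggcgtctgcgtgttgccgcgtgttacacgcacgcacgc

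The capitals show 1 C/EBP-ATF element in ASNS, on the sense strand from -68 to -61, and 1 in CHAC1, on the opposite strand from -209 to -202, while the windows of PHGDH, PSAT1, MTHFD2, DDIT3, ATF4 and TRIB3 held no match to these letters. The element was found in 3.19% of 27305 RefSeq promoters of this length, and in 1.24% of the 9923 whose gene was tested. CCAAT boxes were held by 33% of all promoters and by 35.5% of those whose gene was tested. They were found 3 times in CHAC1 and in PSAT1, 2 times in DDIT3 and in MTHFD2, and 1 time in PHGDH, and not in ASNS, ATF4 or TRIB3. The 1 AP-1 match was in DDIT3, from -238 to -232, against 6.57% of all promoters and 3.61% of those whose gene was tested. These matches describe the letters in the window and are not evidence of binding. Bases farther upstream, or before another start of a gene, were not searched. An empty window therefore does not show that a gene lacks the element.

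Of the 10 genes, 8 were lower and 2 higher in the shSETD2 libraries. PHGDH, PSAT1, PSPH, SHMT2, MTHFD2, ASNS, CHAC1 and ATF4 itself were lower, by 1.29-fold (PSPH) to 2.37-fold (PHGDH) of the mean FPKM. DDIT3 and TRIB3 were 2.87-fold and 3.26-fold higher. In every one of the 10 genes the 3 control libraries and the 3 shSETD2 libraries did not overlap. In bulk RNA, fewer cells expressing a gene and less of its RNA per cell cannot be told apart.

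These counts stand against a comparison in which most genes changed. Over all 14068 genes tested, 78.6% passed the threshold of limma (adjusted p under 0.05), 51.8% lower and 26.8% higher, and 53% had groups without overlap with shSETD2 lower, against 27.9% with shSETD2 higher. The median log2 fold change (shSETD2 over control, on log2(FPKM + 1)) was -0.70 over the 10 genes and -0.29 over all genes tested. A gene that is lower by about the latter amount therefore lies near the middle of the table. Median ratio scaling, which divides each library by its median ratio to the geometric mean over libraries, moved the median of all genes to -0.01. Under it 5394 of all genes tested were lower and 5305 higher. Of the 10 genes 7 were then lower and 2 higher, PSPH no longer passing the threshold. Fold changes of the 10 genes are given on the deposited scale, with the value under median ratio scaling beside them as the change relative to the middle of all genes. The size of the falls depended on the scaling. Quantile scaling, which gives all libraries the same distribution, moved the median of all genes to -0.11. It made the fall of every lower member but PSPH larger than on the deposited scale, where median ratio scaling made it smaller. For other genes a value under another scaling is given where it ends the call or moves the value by over 1.5 times.

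**Figure D1:**
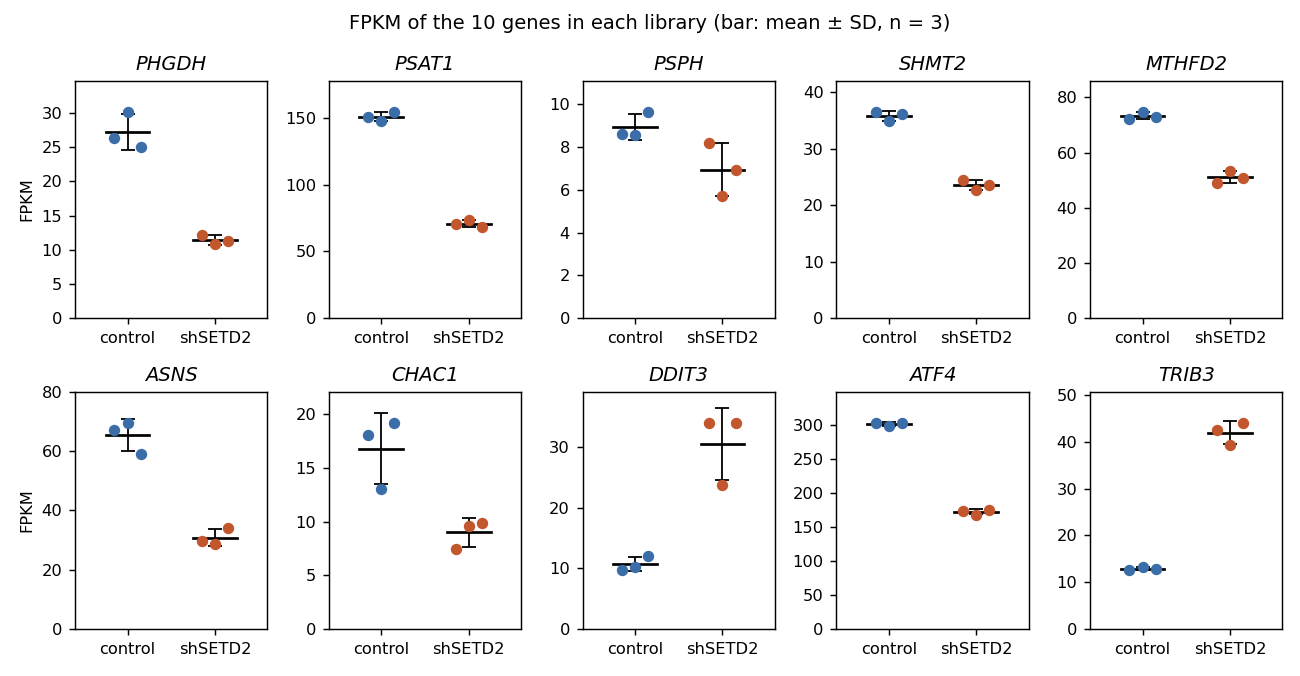
FPKM (vertical axes, from 0, one panel per gene) of the 10 genes in the 3 control and 3 shSETD2 libraries, with each point 1 library and bars for the mean ± SD. The groups do not overlap in any panel, and DDIT3 and TRIB3 are the 2 genes in which shSETD2 lies above control.

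Of the 3 enzymes of serine synthesis, the first, PHGDH, oxidises 3-phosphoglycerate (chr1:120191034-120286849, plus strand, GRCh37, as are all gene positions from here on, ENSG00000092621.12_3). It measured 26.4, 30.2 and 25.02 FPKM in control libraries 1 to 3 and 12.2, 10.9 and 11.3 FPKM in shSETD2 libraries 1 to 3. The lowest control library was above 2 times the highest shSETD2 library, and the mean fell from 27.2 ± 2.66 to 11.5 ± 0.6998 FPKM (SD, n = 3 each). The log2 fold change was -1.17 ± 0.080 SE (adjusted p = 1.77e-05, limma), and 13.8% of tested genes had a lower one. Relative to the middle of all genes it was -0.84 (adjusted p = 9.11e-05).

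PSAT1, the aminotransferase of the middle step (chr9:80912059-80945009, plus strand, ENSG00000135069.13_2), measured 150.4, 148.0 and 154.5 FPKM in control and 70.3, 73.6 and 68.7 FPKM in shSETD2 libraries. The libraries of a group lay close together around means of 151.0 ± 3.29 and 70.8 ± 2.53 FPKM. The log2 fold change was -1.08 ± 0.038 SE (adjusted p = 8.78e-07), and -0.73 relative to the middle of all genes (adjusted p = 4.54e-06).

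PSPH, the phosphatase that releases serine (chr7:56078744-56119297, minus strand, ENSG00000146733.13_2), had the smallest fold change of the 10 genes. It measured 8.61, 8.57 and 9.64 FPKM in control and 8.20, 5.71 and 6.91 FPKM in shSETD2 libraries. The groups came within 1 FPKM of each other, since shSETD2 library 1 lay just under control libraries 1 and 2. The log2 fold change was -0.33 ± 0.12 SE with a 95% interval of -0.62 to -0.04 (adjusted p = 0.0391), near the median of all genes, and 47.7% of tested genes had a lower one. Under median ratio scaling it was -0.02 with an interval of -0.32 to 0.28 (adjusted p = 0.893). The call also passed the threshold in only 1 of the 6 fits that left out 1 library, the one without shSETD2 library 1, at -0.45 (adjusted p = 0.00827).

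The mitochondrial enzymes that carry serine's carbon to folate had smaller changes than PHGDH and PSAT1, with 95% intervals of the log2 fold change that did not overlap theirs on the deposited scale. SHMT2, the mitochondrial serine hydroxymethyltransferase (chr12:57623110-57628718, plus strand, ENSG00000182199.10_3), measured 36.5, 34.9 and 36.1 FPKM in control and 24.5, 22.7 and 23.5 FPKM in shSETD2 libraries. MTHFD2, the mitochondrial methylenetetrahydrofolate dehydrogenase (chr2:74425689-74444692, plus strand, ENSG00000065911.11_2), measured 72.3, 74.7 and 72.8 FPKM in control and 49.1, 53.2 and 50.8 FPKM in shSETD2 libraries. In both genes the gap between the groups was wider than the range of either group. SHMT2 had a log2 fold change of -0.58 ± 0.043 SE (adjusted p = 2.48e-05) and MTHFD2 one of -0.51 ± 0.041 SE (adjusted p = 3.59e-05). Of all tested genes, 35.3% and 38.6% had a lower log2 fold change than SHMT2 and MTHFD2. Relative to the middle of all genes the values were -0.24 (adjusted p = 0.00244) and -0.16 (adjusted p = 0.00874). Under quantile scaling SHMT2 was at -0.80 and MTHFD2 at -0.77.

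ATF4 (chr22:39915700-39918690, plus strand, ENSG00000128272.14_2) was the most abundant of the 10 mRNAs in both groups, as FPKM is scaled to length. It measured 303.1, 298.4 and 302.4 FPKM in control and 173.3, 167.7 and 174.8 FPKM in shSETD2 libraries, with a rank by level above 99.7% and 99.3% of listed genes, averaged over the libraries of a group. The libraries of each group differed by less than 10 FPKM, and the means were 301.3 ± 2.52 and 171.9 ± 3.72 FPKM. The log2 fold change was -0.81 ± 0.028 SE (adjusted p = 8.45e-07), and -0.45 relative to the middle of all genes (adjusted p = 2.07e-05).

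Outside the enzymes of serine synthesis and one-carbon metabolism, the members that are targets of ATF4 divided into 2 that were lower and 2 that were higher. ASNS (chr7:97481430-97501854, minus strand, ENSG00000070669.16_3), with the C/EBP-ATF element shown above, measured 67.3, 69.6 and 59.2 FPKM in control and 29.7, 28.8 and 34.0 FPKM in shSETD2 libraries. ASNS had a log2 fold change of -1.06 ± 0.085 SE (adjusted p = 3.87e-05), close to that of PSAT1, and -0.71 relative to the middle of all genes (adjusted p = 0.000339). CHAC1 (chr15:41245160-41248717, plus strand, ENSG00000128965.11_2), whose promoter window also held the element, measured 18.1, 13.0 and 19.2 FPKM in control and 7.42, 9.63 and 9.90 FPKM in shSETD2 libraries. Control library 2 lay nearest to the shSETD2 libraries, and the spread within groups was wider than in ASNS. CHAC1 had a log2 fold change of -0.82 ± 0.17 SE (adjusted p = 0.00356), and -0.50 relative to the middle of all genes (adjusted p = 0.0325).

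DDIT3 (chr12:57910371-57914300, minus strand, ENSG00000175197.11_3) measured 9.79, 10.2 and 12.0 FPKM in control and 33.8, 23.7 and 34.0 FPKM in shSETD2 libraries. Library 2 was the lowest of the shSETD2 libraries and still lay far above the highest control library. The mean rose from 10.6 ± 1.17 to 30.5 ± 5.90 FPKM, a log2 fold change of 1.42 ± 0.15 SE (adjusted p = 0.000162), and 92.5% of tested genes had a lower one. Relative to the middle of all genes the rise was 1.76 (adjusted p = 6.78e-05). The last 982 bases of DDIT3 lie within MARS, the methionyl-tRNA synthetase gene on the opposite strand, whose mean was 22.7 FPKM in control and 34.9 FPKM in shSETD2 libraries. The library kit keeps strand, but whether the authors' counting used it was not given in the sources used here, so the part of MARS reads in DDIT3 was not tested.

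TRIB3 (chr20:343479-378203, plus strand, ENSG00000101255.10_3) measured 12.5, 13.3 and 12.9 FPKM in control and 42.6, 39.3 and 44.1 FPKM in shSETD2 libraries. It was the member with the largest rise and with little spread in either group, from 12.9 ± 0.377 to 42.0 ± 2.46 FPKM. The log2 fold change was 1.63 ± 0.054 SE (adjusted p = 6.80e-07), above that of 93.8% of tested genes, and 1.97 relative to the middle of all genes (adjusted p = 3.69e-07). TRIB3 lies on chromosome 20, where 57.3% of 372 tested genes were higher and the median log2 fold change was 0.40, the highest median of any chromosome. CEBPB and the eIF2 subunit gene EIF2S2, which were also higher, lie there too, and the part of the chromosome in these values was not tested. On chromosome 12, which holds DDIT3 and SHMT2, the median was -0.13.

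**Figure D2:**
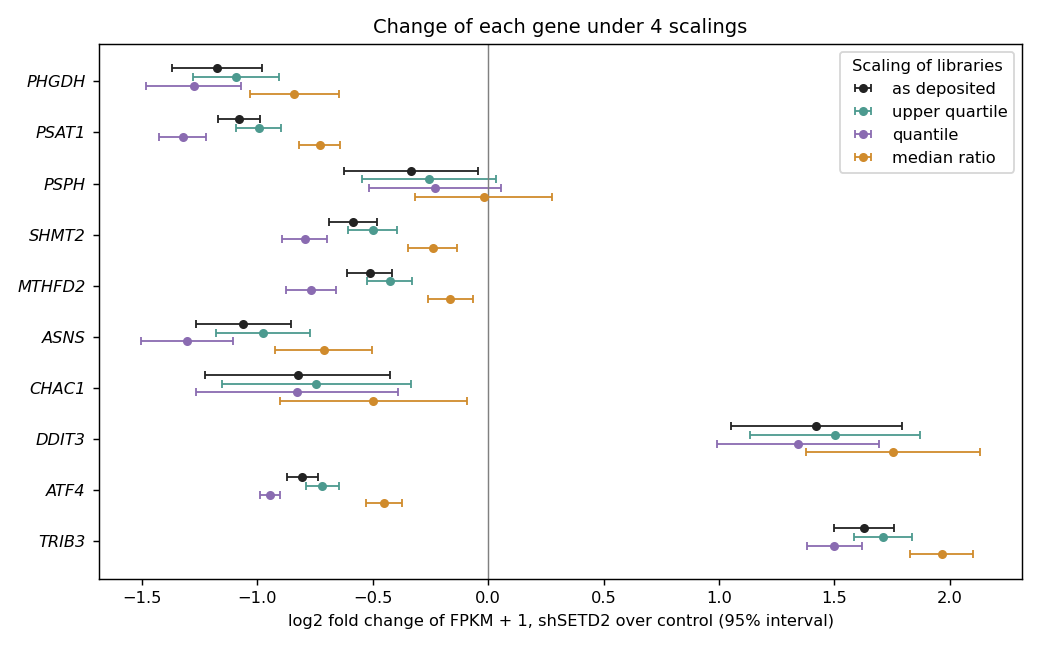
Log2 fold change of FPKM + 1 (horizontal axis, shSETD2 over control, points with 95% intervals) of each of the 10 genes (vertical axis) on the deposited scale and under upper quartile, quantile and median ratio scaling. The intervals of PSPH reach 0 under the 3 other scalings, DDIT3 and TRIB3 stay above 0, and the other 7 genes stay below 0 under all 4.

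Ratios between 2 genes in the same library do not depend on how that library was scaled, so 12 pairs were compared with exact two-sided permutation tests over the libraries. The smallest p these exact permutation tests allow with 3 libraries a group is 0.1, and 7 of the 12 pairs reached it with no overlap between the groups (exact permutation, adjusted p = 0.171). The share of such pairs among all pairs of genes was not computed. Most single genes tested also had groups without overlap (53% with shSETD2 lower and 27.9% with shSETD2 higher), so this count alone does not set the 12 pairs apart. The ratio of DDIT3 to ATF4 was 0.0323, 0.0341 and 0.0396 in control and 0.195, 0.141 and 0.194 in shSETD2 libraries, a difference of 2.31 on the log2 scale. That of TRIB3 to ATF4 went from 0.0414, 0.0446 and 0.0426 to 0.246, 0.234 and 0.253, a difference of 2.51. Both stress targets thus took a higher level per ATF4 mRNA in every shSETD2 library than in any control library.

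ASNS and CHAC1, which were lower, did not move this way. The ratio of ASNS to ATF4 was 0.222, 0.233 and 0.196 in control and 0.171, 0.172 and 0.194 in shSETD2 libraries (log2 difference -0.28), so the groups were separated by a narrow gap. The ratio of CHAC1 to ATF4 overlapped between the groups (log2 difference -0.08, exact permutation p = 0.5), and that of CHAC1 to DDIT3 went from 1.85, 1.28 and 1.604 to 0.219, 0.406 and 0.291 (log2 difference -2.40). CHAC1 was above DDIT3 in every control library and below it in every shSETD2 library. TRIB3 to DDIT3 overlapped (log2 difference 0.20, exact permutation p = 0.5).

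Within serine synthesis the order of the 3 enzymes by level was the same in all 6 libraries, with PSAT1 above PHGDH and PHGDH above PSPH. The ratio of PSAT1 to PSPH was 17.5, 17.3 and 16.0 in control and 8.56, 12.9 and 9.94 in shSETD2 libraries, and that of PHGDH to PSPH was 3.07, 3.52 and 2.59 against 1.49, 1.90 and 1.63 (log2 differences -0.71 and -0.86). The first and middle enzymes were thus lower relative to the last one in all shSETD2 libraries. The ratio of PHGDH to PSAT1 was 0.176, 0.204 and 0.162 in control and 0.174, 0.148 and 0.164 in shSETD2 libraries, and these ranges overlapped (log2 difference -0.15, exact permutation p = 0.4, adjusted p = 0.48). SHMT2 to MTHFD2 also overlapped (log2 difference -0.08, exact permutation p = 0.3).

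**Figure D3:**
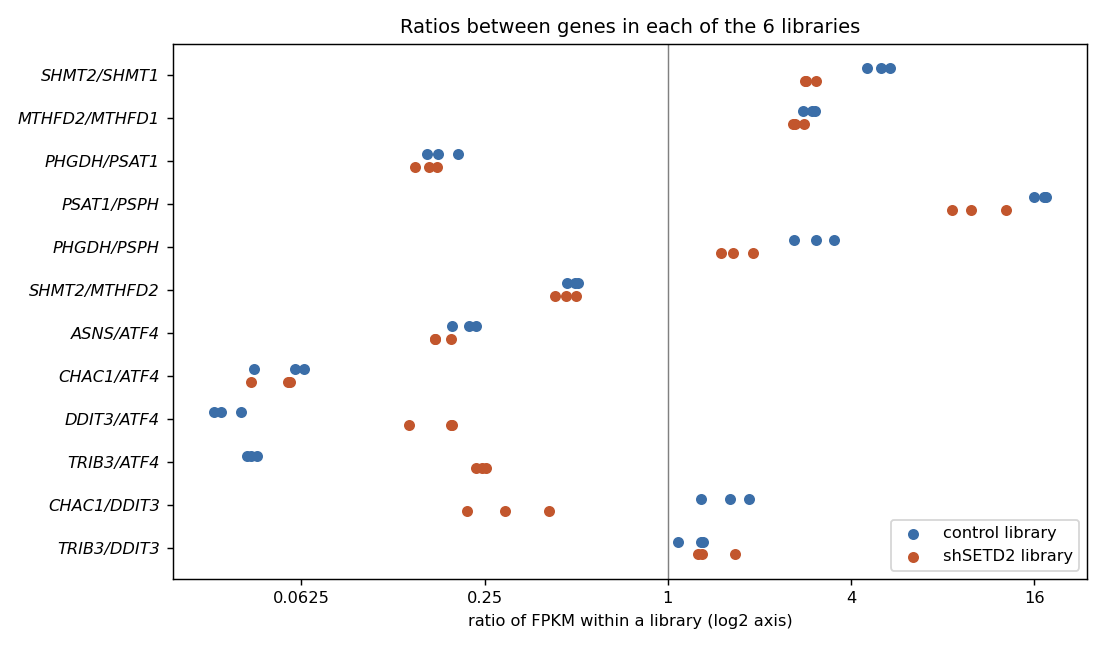
Ratio of FPKM between 2 genes in the same library (horizontal axis, log2 scale) for 12 pairs (vertical axis), with each point 1 of the 3 control or 3 shSETD2 libraries. The pairs of DDIT3 or TRIB3 with ATF4 and of CHAC1 with DDIT3 show the widest gaps between the groups, and the pairs of PHGDH with PSAT1 and of SHMT2 with MTHFD2 overlap.

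The closest relatives of the members did not all move with them. SHMT1, the cytosolic counterpart of SHMT2, measured 7.28, 7.71 and 6.70 FPKM in control and 8.62, 8.02 and 7.69 FPKM in shSETD2 libraries, which overlapped (log2 fold change 0.15, adjusted p = 0.0846), although it passed the threshold under the 3 other scalings (0.46 and adjusted p = 0.00069 with median ratio). The ratio of SHMT2 to SHMT1 was 5.01, 4.52 and 5.38 in control and 2.84, 2.83 and 3.06 in shSETD2 libraries (log2 difference -0.77). MTHFD1, the cytosolic enzyme, was lower (-0.37, adjusted p = 0.000242), but not under median ratio scaling (-0.03, adjusted p = 0.539), and the ratio of MTHFD2 to MTHFD1 overlapped between groups (log2 difference -0.13, exact permutation p = 0.2). The ratio of mitochondrial to cytosolic enzyme was therefore lower in every shSETD2 library for the hydroxymethyltransferases and overlapped between the groups for the dehydrogenases.

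ATF5, the factor most like ATF4, moved opposite to it, from 4.78, 3.12 and 4.95 FPKM in control to 13.6, 13.5 and 14.1 FPKM in shSETD2 libraries (log2 fold change 1.497 ± 0.143 SE, adjusted p = 9.15e-05). TRIB1 was slightly higher (0.14, adjusted p = 0.0258) and TRIB2 was lower (-0.51, adjusted p = 0.00399), so TRIB3 had the largest rise of the 3 Tribbles genes. CHAC2 was lower (-0.52, adjusted p = 0.0281) with overlapping groups, and MTHFD2L was lower at 1.77 against 1.24 FPKM. Under median ratio scaling CHAC2 and MTHFD2L did not pass the threshold. Under quantile scaling TRIB1 (0.01, adjusted p = 0.826), TRIB2 (-0.15, adjusted p = 0.274), CHAC2 (-0.36, adjusted p = 0.0971) and MTHFD2L (0.10, adjusted p = 0.248) did not pass it either, and the sign of MTHFD2L turned, while TRIB1 was 0.48 and TRIB2 -0.28 under median ratio scaling.

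Beyond these, 110 other genes of the same pathways were listed by hand, of which 105 were in the table and 104 were tested. Of the 104, 38 were higher, 47 lower and 19 past no threshold, with a median log2 fold change of -0.06 against -0.29 over all genes. Those higher and lower were 36.5% and 45.2%, against 26.8% and 51.8% over all genes tested. Under median ratio scaling 53 were higher and 29 lower. All 14068 genes tested moved as well, to 5305 higher and 5394 lower, and the median ratio counts of each list stand against these. The lists are taken in turn by their place in the pathway.

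Of 17 tested genes of the folate one-carbon cycle, 11 were lower and 3 higher, with a median of -0.55 (8 and 6 under median ratio scaling). Those lower and higher were 64.7% and 17.6%, against 51.8% and 26.8% over all genes tested. GLDC, which cleaves glycine, fell from 3.88 ± 0.0504 to 0.0166 ± 0.00564 FPKM (log2 fold change -2.26). SFXN3, a mitochondrial serine carrier, rose from 2.71 ± 0.241 to 11.5 ± 0.331 FPKM (1.75). SFXN1 and SFXN2 of the same gene family went the other way. SFXN1 fell from 23.6 ± 0.602 to 10.7 ± 0.547 FPKM (-1.08) and SFXN2 from 3.64 ± 0.273 to 0.791 ± 0.0266 FPKM (-1.37). Of 8 tested genes listed for the use of serine, 4 were lower and 1 higher (3 and 2 under median ratio scaling), against 51.8% lower over all genes tested. CTH, which makes cysteine from cystathionine and not from serine directly, fell from 23.5 ± 2.33 to 3.23 ± 0.258 FPKM (-2.53). PTDSS2 and SDSL fell by 0.51 each on the log2 scale. PTDSS2 was at -0.21 under median ratio scaling, and SDSL did not pass the threshold under quantile scaling (-0.06, adjusted p = 0.530).

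Of 18 genes of eIF2 kinases, eIF2 and eIF2B subunits, and their phosphatases and modulators, 10 were lower and 5 higher, or 55.6% and 27.8%, near the shares of 51.8% and 26.8% over all genes tested. Under median ratio scaling 6 were lower and 8 higher. EIF2S3, the gamma subunit of eIF2, fell from 170.5 ± 2.58 to 46.7 ± 1.28 FPKM (-1.85), whereas EIF2S2, the beta subunit, rose from 73.7 ± 0.1197 to 113.5 ± 5.65 FPKM (0.61, with 0.97 under median ratio and 0.37 under quantile scaling). OMA1, a protease that relays mitochondrial stress, fell by 1.25 on the log2 scale, and IMPACT, an inhibitor of the kinase GCN2, fell by 1.05.

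The other ATF4 targets included genes that were higher and genes that were lower. Of 27 tested besides the tRNA synthetases and XPOT, 11 were higher and 11 lower, with a median of -0.06 (14 higher and 9 lower under median ratio scaling). That is 40.7% each, against 26.8% higher and 51.8% lower over all genes tested. Among regulators, 5 were higher and 4 lower of 9 under both scalings (55.6% and 44.4%). CEBPG, a C/EBP partner of ATF4, fell from 35.6 ± 0.227 to 10.1 ± 0.278 FPKM (-1.72), and CEBPB, another such partner, rose from 21.1 ± 0.514 to 66.6 ± 3.72 FPKM (1.61). ATF3, a stress factor, measured 36.3, 22.8 and 26.03 FPKM in control and 8.09, 13.0 and 6.07 FPKM in shSETD2 libraries (-1.58 ± 0.28 SE, adjusted p = 0.00197), opposite to DDIT3.

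All 3 tested genes of secreted proteins were higher, against 26.8% of all genes tested. GDF15, a stress cytokine, measured 1.11, 1.39 and 1.18 FPKM in control and 219.8, 194.4 and 221.6 FPKM in shSETD2 libraries (log2 fold change 6.58 ± 0.073 SE, adjusted p = 1.32e-08), which sets it far from the other genes of these lists. STC2 rose from 25.3 ± 0.524 to 54.8 ± 1.56 FPKM (1.08), and VEGFA from 6.24 ± 0.171 to 10.8 ± 0.347 FPKM (0.71). Of 6 enzymes, 3 were lower and the other 3 passed no threshold (2 lower and 2 higher under median ratio scaling). The share lower was 50%, against 51.8% over all genes tested. Lower were CTH, already counted in the serine list, ALDH18A1 of proline synthesis (44.6 ± 0.194 to 16.1 ± 0.745 FPKM, -1.42) and PCK2 (-0.49). PCK2 did not pass the threshold under median ratio scaling (adjusted p = 0.0646).

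Of 9 amino acid transporters, 3 were higher and 4 lower (4 and 3 under median ratio scaling). Those higher and lower were 33.3% and 44.4%, against 26.8% and 51.8% over all genes tested. SLC38A2, a carrier of small neutral amino acids, rose from 50.7 ± 1.10 to 170.6 ± 11.6 FPKM (1.73), and SLC7A5, the carrier of large neutral amino acids, from 75.7 ± 0.801 to 201.2 ± 9.70 FPKM (1.40). SLC7A3, a carrier of cationic amino acids, measured 9.83, 7.97 and 9.18 FPKM in control libraries and was listed at 0 in all 3 shSETD2 libraries. Transporters thus included large changes in both directions.

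A list of 13 ATF4 targets held cytosolic tRNA synthetases and the tRNA export receptor XPOT, of which 6 were higher and 5, XPOT among them, lower, with a median of 0.04, and of 8 other cytosolic synthetases 4 were higher and 4 lower, with a median of -0.02. Over all genes tested 26.8% were higher and 51.8% lower. Under median ratio scaling 7 of the 13 were higher and 2 lower, and 4 of the 8 were higher and 2 lower, with medians of 0.39 and 0.32. TARS rose from 45.5 ± 1.26 to 115.6 ± 6.62 FPKM (1.33) and NARS from 28.4 ± 3.84 to 57.8 ± 9.83 FPKM (0.99), while IARS fell from 82.9 ± 0.554 to 48.9 ± 1.55 FPKM (-0.75, and -0.40 under median ratio scaling). Among the others, VARS rose from 15.8 ± 0.472 to 53.0 ± 2.90 FPKM (1.69), and FARSA and FARSB, the subunits of one synthetase, fell by 1.37 and 1.03 on the log2 scale.

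A list of 16 held chaperones and other genes of the ATF6 and XBP1 arms of the unfolded protein response, which act beside ATF4. Of these 9 were higher and 3 lower (56.25% and 18.75%, against 26.8% and 51.8% over all genes tested), with a median of 0.35. The 3 lower ones were ATF6 (-0.48), ERN1 (-0.35) and XBP1 (-0.32). Under median ratio scaling 13 were higher, and these 3 passed no threshold (-0.15, -0.09 and 0.03). ERN1 passed none under quantile scaling either (-0.06), where XBP1 was at -0.57. HSPA5, the chaperone BiP, rose from 129.7 ± 1.83 to 277.7 ± 4.03 FPKM (1.09), HYOU1 from 21.6 ± 0.0885 to 40.5 ± 4.41 FPKM (0.87) and PDIA4 from 84.1 ± 1.31 to 151.9 ± 3.27 FPKM (0.84). In HSPA5, HYOU1 and PDIA4 shSETD2 libraries lay above control libraries, as in DDIT3 and TRIB3 and opposite to ATF4.

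**Figure D4:**
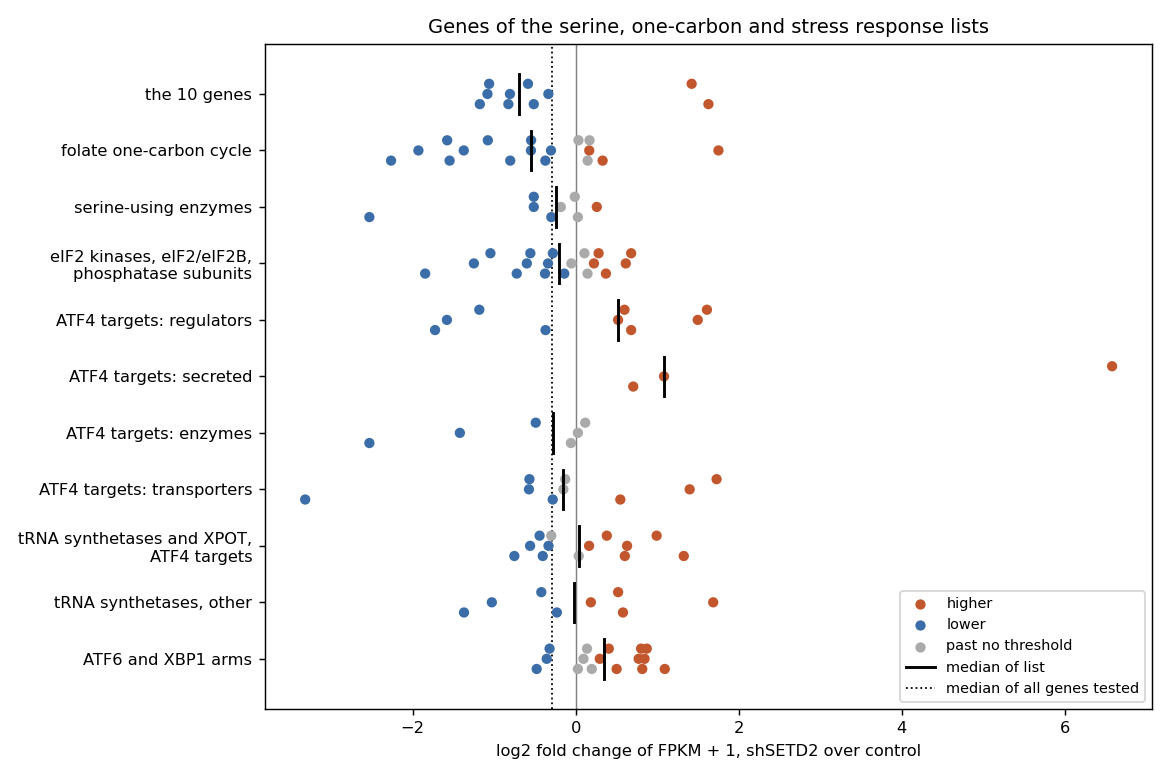
Log2 fold change of FPKM + 1 (horizontal axis, shSETD2 over control) of every tested gene of the 10 members and the 10 other lists (vertical axis), with each point 1 gene coloured by its call, a black bar at the median of the list and a dotted line at -0.29, the median of all genes tested. The members and the folate genes have medians left of the dotted line, and GDF15 stands alone at 6.58.

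Genes with a C/EBP-ATF element were found among those that were higher and those that were lower. Of the 86 other pathway genes with a RefSeq promoter, 5 held a match in the 250 bases, and AARS and HERPUD1 of these were higher and ATF3, IARS and PPP1R15B lower. Of the 81 without a match, 32 were higher, 36 lower and 13 past no threshold. Over all genes tested, 26.8% were higher and 51.8% lower.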

How the data were processed

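Expression was measured by stranded RNA-seq in 6 libraries, 3 control and 3 shSETD2, grouped by their titles. The authors mapped reads to hg19 (GRCh37) with Hisat2, quantified genes with Ballgown and deposited FPKM, fragments scaled to gene length and library size. Tool versions and the counting strand are not given in the sources used here. The authors' second table, with the group means, fold changes and p-values of their own comparison for 15120 genes, was not used. Low FPKM values shared no common step, so the depth is unknown, no counting error is given and precision rests on the spread over 3 libraries. The summed FPKM was 218769 to 224603.

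Genes with a mean of at least 0.5 FPKM were tested on log2(FPKM + 1), a pseudocount of 1 that understates changes of low genes, with limma 3.58.1 in R 4.3.3 (lmFit, eBayes with intensity trend, group as the only term), with Benjamini-Hochberg adjustment over all 14068 genes and a threshold of 0.05. The fit was tested on simulated data. Ratios were compared with scipy 1.17.1. Genes named were the members, their closest relatives, the 3 called genes of each list with the largest change, and any gene a ratio uses, with 1 gene that this rule covers not reported here. Those with a promoter match, EIF2S2, MARS, ATF6, ERN1, XBP1, SFXN1 and SFXN2 were named after their values were seen. The members and lists were chosen with earlier results of these data known. Promoters came from a RefSeq table of GRCh38.p14, matched by symbol, and PSPH and SHMT2 had no entry. Alternatives were pseudocounts of 0.1 and 0.01, other filters, 3 other scalings, no trend, an ordinary linear model per gene, a replicate block and each library left out in turn.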

Additional observations from a re-analysis of the deposited data

How the results depend on the processing

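Across 16 alternatives 2 members were higher and 7 or 8 were lower. Each member kept its direction, and each but PSPH kept its side of the threshold. PSPH lost its call in 9 of the 16, with log2 fold changes of -0.45 to -0.02 and adjusted p of 0.00827 to 0.893, among them upper quartile (-0.26, adjusted p = 0.0913), quantile (-0.23, adjusted p = 0.121) and median ratio scaling (-0.02), and the linear model per gene (-0.33, adjusted p = 0.0964). Without 1 library it ranged from -0.45 to -0.22. Members lower numbered 7 to 8 and other pathway genes higher 36 to 38 and lower 46 to 47 without 1 library, and over all alternatives 36 to 53 and 29 to 48. The lower count of 29 came with median ratio scaling, under which the share of higher calls among all called genes went from 34.1% to 49.6% (37.6% with upper quartile and 43.2% with quantile scaling). Of the ratios, 6 to 8 of 12 had groups without overlap. That of CHAC1 to ATF4 ranged from -0.25 to 0.05 without 1 library and changed sign without control library 3 (0.020) or shSETD2 library 1 (0.054), and that of TRIB3 to ATF4 was 2.43 with 1 added to each FPKM. The cause of these changes was not tested.

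Deviations from the group means of libraries with the same number correlated at -0.024, 0.018 and -0.008 across genes, so no pairing by number was seen in these values. Whether libraries with the same number were prepared together was not tested. With the replicate block the members counted 2 higher and 8 lower, and PSPH had an adjusted p of 0.0407.

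FPKM carries no depth, so counting error could not be given. PSAT1, PSPH, MTHFD2, ASNS and ATF4 have 4, 1, 7, 5 and 4 pseudogenes named after them in the GENCODE annotation of the build, of which 0 are in the deposited table, and reads shared with these copies make the levels of the 5 genes uncertain. SHMT2 overlaps NDUFA4L2 on the other strand by 33 bases.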

Other observations

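For each member the tested gene with the nearest levels over the 6 libraries was found, by the root mean square difference of log2(FPKM + 1). The measure compares level and change together, and nearness describes these 6 libraries only. For the genes that were lower, these were SFPQ for MTHFD2 (0.0332), MAGED2 for SHMT2 (0.0522), RPL10A for ATF4 (0.0583), KRI1 for PSPH (0.0855), MIS18A for PHGDH (0.0872), RPLP1 for PSAT1 (0.103), TSPYL1 for ASNS (0.108) and CFDP1 for CHAC1 (0.164). For the genes that were higher they were FAM83D for TRIB3 (0.0623) and PSME1 for DDIT3 (0.148). No member was the nearest gene of another member.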
